A study of Mus musculus with 4 samples.

Results

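The mitochondrial ribosomal protein genes are the nuclear genes that encode the protein subunits of the ribosome inside mitochondria. They were taken by symbol, as every gene of the deposited tables named Mrps or Mrpl followed by a number and at most 1 letter from a to c. This gave 78 of 31017 gene symbols, of which 29 carried a small subunit symbol (Mrps) and 49 a large subunit symbol (Mrpl). The rule uses symbols and no measured value, although the group was proposed with earlier results of these data known. Of the 78 genes, 77 passed the filter on low counts, and Mrpl53 had 0 counts in all 4 libraries.

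The mitochondrial ribosome translates the few proteins still encoded by mitochondrial DNA, all of them subunits of the oxidative phosphorylation complexes of the inner membrane. Its RNA is transcribed inside the organelle, whereas its proteins are made in the cytosol and imported. The small subunit binds the messenger RNA and holds the decoding centre, and the large subunit forms the peptide bond and passes the new chain through an exit tunnel to the membrane. Some of its proteins have counterparts in bacterial ribosomes and others occur only in mitochondria. In monocytes, short-lived blood leukocytes that are produced in the bone marrow and enter inflamed tissue and the artery wall, mitochondria serve energy supply and inflammatory signalling.

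RNA had been sequenced from monocytes sorted by flow cytometry out of the bone marrow of C57BL/6 mice of wild-type genotype, 2 libraries from mice aged 18 months (aged) and 2 from mice aged 3 months (young). All 4 libraries carried the disease label atherosclerosis. By its title, the study asked whether marrow age sets the clonality of plaque cells derived from smooth muscle. The labels do not say whether the replicates came from separate animals, so the p-values rest on a spread between libraries that may be purely technical. In bulk RNA, fewer cells of a type and less RNA per cell cannot be told apart.

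Library totals ranged from 20159129 to 34278754 counts, and the replicates of each group differed by more than counting error (chi-square per degree of freedom of 10.2 in the aged and 13.5 in the young pair). All 8 monocyte markers were detected, among them Lyz2, Csf1r and Ccr2, and 2 of them passed the test, Csf1r higher and Ly6c2 lower in the aged libraries. Markers of other cells differed between the ages too. Of 6 tested B cell markers, 5 were higher, with sums of 1077 and 1073 CPM (CPM being counts scaled to a common, TMM-adjusted library size) at 18 months against 717 and 725 CPM at 3 months, and none of the 7 listed was at 0. Of 8 markers of neutrophils and their precursors, 2 were higher (Ngp and Ltf) and 4 lower (Elane, Mpo, Prtn3 and Ctsg). The 8 summed to 10905 to 10990 CPM at 18 months against 8648 to 8652 CPM at 3 months, although their median log2 change was -0.20. Ngp alone averaged 4959 CPM at 18 months against 3110 CPM at 3 months. Among 10 cycling cell markers 1 passed as lower, with a median log2 change of -0.16 over the 10. In 9 of the 10 both aged libraries lay below both young ones, against 25.7% of all genes tested. Of 5 dendritic cell markers, 2 were higher. None of the 6 T and NK cell markers and none of the 6 erythroid markers passed. The part of these cells in the values of the ribosomal genes was not tested.

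No mitochondrial ribosomal protein gene passed the test for a difference between the ages. With edgeR's quasi-likelihood F-test and Benjamini-Hochberg adjustment over all 12035 genes tested, 0 of 77 had an adjusted p under 0.05, where 5.77% of all genes did (2.87% higher and 2.89% lower in the aged libraries). DESeq2 and limma-voom also called 0 of the 77, whereas edgeR with the replicate number as a block called 1, Mrpl20. At an unadjusted p under 0.05 there were 2 of 77 (2.6%), Mrps24 and Mrpl20, both lower in the aged libraries, against 21.1% of all genes. The smallest adjusted p of the group was 0.136, for Mrps24.

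The estimates were small as well as below the threshold. The log2 changes of the 77 genes, aged minus young, ran from -0.26 for Mrps22 to 0.24 for Mrpl38, with a median of -0.03, while the median of all genes tested was -0.0044. The middle of the group lay between -0.11 and 0.05 (quartiles), and the median size of a change was 0.084 against 0.152 over all genes. There were 33 positive and 44 negative estimates. In 33 of the 77 genes (42.9%) the aged and the young libraries did not overlap, 12 higher and 21 lower in the aged ones, where over all genes tested the share was 51.6% (25.9% higher, 25.7% lower).

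A p that misses the threshold does not show that the levels were equal, so the 95% intervals of the changes were compared with fixed limits. The interval lay within a 1.5-fold difference in either direction for 73 of the 77 genes (94.8%, against 64.8% of all genes tested), and within a 2-fold difference for all 77 (81.8% of all genes). A 1.5-fold limit does not exclude a modest shift, since 74.1% of the cytosolic ribosomal proteins, described later, also had intervals within it. Their median log2 change was -0.33. Of the 77 mitochondrial genes, 4 had an interval that reached beyond 1.5-fold. Mrps22 and Mrpl47 did so on the lower side, to 0.627 and 0.664 of the young level. Mrps18b and Mrps34 did so on the higher side, to 1.58 and 1.60 times that level. These 4, named after their values were seen, were among the less abundant members, with CPM values between 4.25 and 14.2 in the 4 libraries, and their standard errors of 0.19 to 0.21 exceeded the group's median of 0.108.

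**Figure D1:**
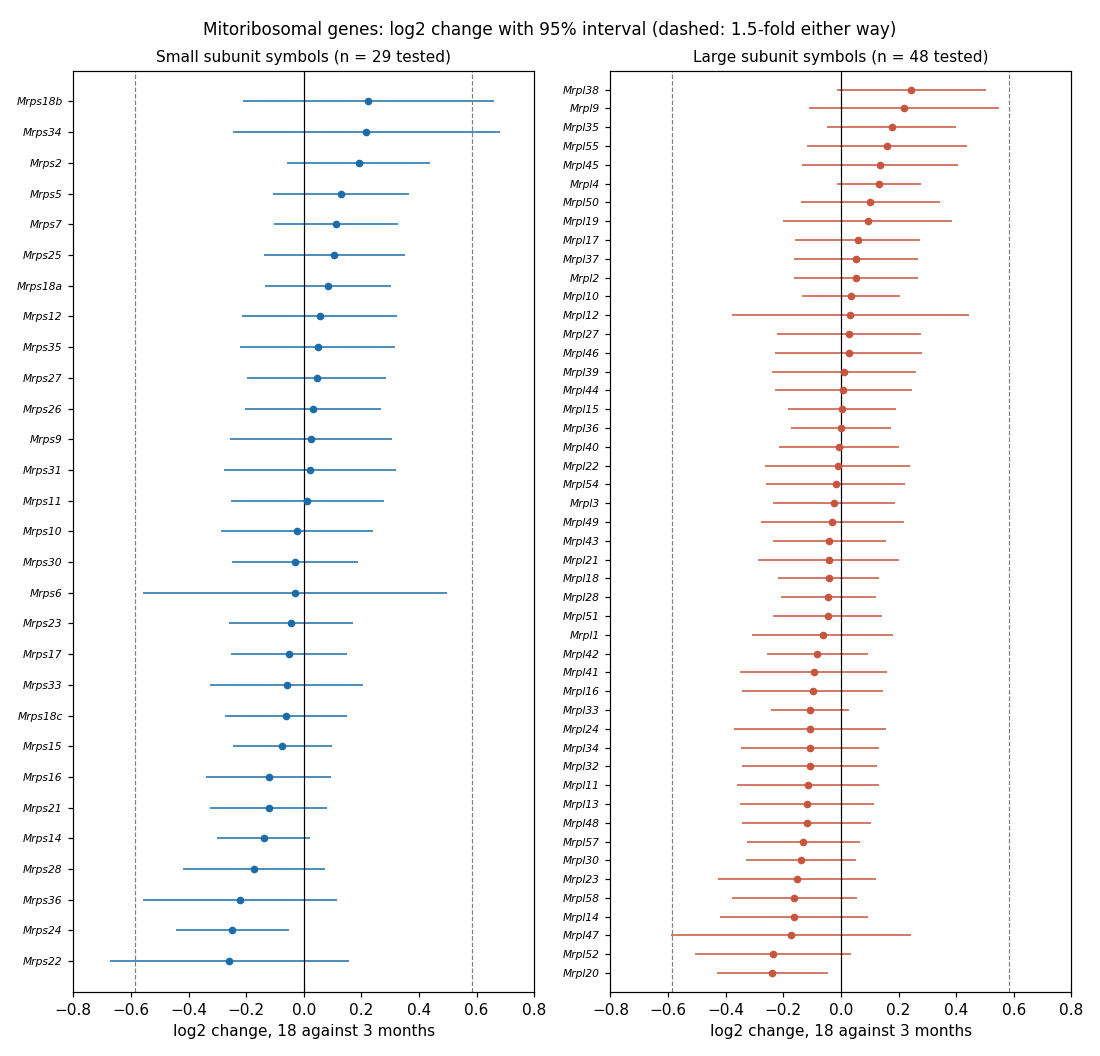
Log2 change of each of the 77 tested mitochondrial ribosomal protein genes, 18 against 3 months, with its 95% interval; genes with small subunit symbols are on the left and genes with large subunit symbols on the right, each sorted by the change, and the dashed lines mark a 1.5-fold difference. The points lie between -0.26 and 0.24, and 4 intervals cross a dashed line.

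As a whole the group took a nearly constant share of the libraries. Its summed level was 2570 and 2588 CPM in aged replicates 1 and 2, and 2673 and 2602 CPM in young replicates 1 and 2. The aged sums lay below both young ones, with the nearest pair 2588 against 2602 CPM. In raw counts the group made up 0.259% and 0.258% of aged replicates 1 and 2, and 0.269% and 0.257% of young replicates 1 and 2. By this raw share the ages overlapped, with young replicate 2 the lowest.

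The stretches of DNA upstream of these genes were searched for short motifs, and most windows held none of the 3 named here. RefSeq promoter windows (build GRCm38.p6, the 250 bases before an annotated start) were found for 69 of the 78 genes, 75 windows in all. They were searched on both strands for letters of factors known from promoters of nuclear genes for mitochondrial proteins: GCGC and TGCGC with any 1 base between them for NRF1, CCGGAAG for ETS factors such as GABP, and AAGATGG for YY1. The motifs were chosen after counts of a longer set had been seen, and none of these 3 contains another. The windows below belong to the small subunit gene with the lowest estimate and to 3 large subunit genes described later, and were chosen because they hold these letters in full windows without any annotated exon; capitals mark the matches, in either orientation, and each sequence runs 5′ to 3′ on the gene's strand. The regions are chr9:98601680-98601929 (minus strand) for Mrps22, chr11:97315466-97315715 (plus) for Mrpl45, chr14:54426659-54426908 (plus) for Mrpl52 and chr11:115403502-115403751 (plus) for Mrpl58.
Mrps22: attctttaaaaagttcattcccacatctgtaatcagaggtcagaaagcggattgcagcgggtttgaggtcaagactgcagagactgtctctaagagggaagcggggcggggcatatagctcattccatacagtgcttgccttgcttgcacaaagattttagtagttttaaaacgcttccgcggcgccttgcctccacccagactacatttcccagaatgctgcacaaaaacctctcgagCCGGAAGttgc
Mrpl45: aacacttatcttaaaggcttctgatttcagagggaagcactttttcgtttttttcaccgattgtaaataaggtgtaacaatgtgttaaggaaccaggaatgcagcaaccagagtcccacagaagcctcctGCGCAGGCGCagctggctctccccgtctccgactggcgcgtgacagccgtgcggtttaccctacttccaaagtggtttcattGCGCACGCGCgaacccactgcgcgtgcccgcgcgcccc
Mrpl52: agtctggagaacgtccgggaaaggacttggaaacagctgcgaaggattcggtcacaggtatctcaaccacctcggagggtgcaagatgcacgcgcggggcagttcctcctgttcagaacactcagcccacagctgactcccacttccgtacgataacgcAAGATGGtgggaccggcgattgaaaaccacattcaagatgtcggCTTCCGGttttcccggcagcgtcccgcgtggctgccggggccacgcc
Mrpl58: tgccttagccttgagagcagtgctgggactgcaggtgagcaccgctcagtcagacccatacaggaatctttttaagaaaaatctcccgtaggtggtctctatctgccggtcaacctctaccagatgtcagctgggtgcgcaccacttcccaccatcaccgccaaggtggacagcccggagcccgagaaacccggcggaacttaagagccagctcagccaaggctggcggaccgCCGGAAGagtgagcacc
In Mrpl45 both matches are to the NRF1 letters, in Mrps22 and Mrpl58 the match is to the ETS letters, and Mrpl52 holds the YY1 letters first and the ETS letters nearer to the start.

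Over all windows of the group, the ETS letters were found in 24.0%, the NRF1 letters in 13.3% and the YY1 letters in 8.00%. The windows of all genes tested held them in 13.8%, 8.05% and 4.42%, and all windows of the RefSeq table in 6.91%, 3.74% and 4.49%. At least 1 of these motifs stood in 31 of the group's 75 windows (41.3%), against 24.0% of the windows of all genes tested. Base composition was close to that of the genes tested, with a median GC content of 58.4% against 59.2%. The SP1 letters GGGCGG, the CCAAT box read as those 5 letters and the TATA box read as TATAAA were found in 49.3%, 37.3% and 6.67% of the group's windows, against 56.3%, 35.6% and 6.37% for all genes tested. NRF1 letters stood in 9 of 48 windows of large subunit genes and in 1 of 27 of small subunit genes. A match is a description of these letters and not a binding site.

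Nrf1, Gabpa and Yy1, which encode factors matching these letters, were measured in the same libraries, and none of these 3 passed the test. Genes of other ETS factors are not given here. Nrf1 was at 87.8 and 88.9 CPM (aged) against 81.0 and 79.4 CPM (young) (log2 change 0.14). Gabpa, the DNA-binding subunit of GABP, had a log2 change of 0.11, and Yy1 one of 0.01. These 3 genes were singled out after their values had been seen.

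The 29 small subunit genes were balanced in direction. There were 14 positive and 15 negative estimates, a median log2 change of -0.02 and a range of -0.26 to 0.22. The groups did not overlap in 15 of 29 (51.7%, against 51.6% of all genes tested), 7 with higher and 8 with lower aged libraries.

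Mrps24 (chr11:5703983-5715680, minus strand), a small subunit protein with a bacterial counterpart, had the smallest p of the whole group. It shares 15.4% of its exonic bases with Urgcp on the same strand, which makes its reads uncertain. It was at 38.2 and 38.1 CPM in aged replicates 1 and 2, and at 46.6 and 44.0 CPM in young replicates 1 and 2. Both aged libraries were lower than both young ones. The log2 change was -0.25 ± 0.09 (SE; 95% interval -0.44 to -0.05; edgeR adjusted p = 0.136). Mrps14, Mrps28 and Mrps36 leaned the same way without overlap between the groups, with log2 changes of -0.14, -0.17 and -0.22 and adjusted p of 0.301, 0.414 and 0.445 in the same edgeR test. Mrps14 was the most abundant of these, at 88.7 and 82.8 CPM (aged) against 95.4 and 93.6 CPM (young).

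Mrps22 (chr9:98588730-98601660, minus strand), a protein found only in mitochondrial ribosomes and mutated in an inherited mitochondrial disease, had the lowest estimate of all members. Its levels were 9.13 and 13.9 CPM in aged replicates 1 and 2, and 13.2 and 14.2 CPM in young replicates 1 and 2. Aged replicate 1 alone was low, and aged replicate 2 lay between the young libraries. The log2 change of -0.26 ± 0.19 (SE; edgeR adjusted p = 0.472) became -0.59 without aged replicate 2 (adjusted p = 0.0672).

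Among the small subunit genes with higher estimates, Mrps2 (chr2:28468066-28471178) had the smallest p. It was at 37.2 and 30.6 CPM (aged) against 30.0 and 29.4 CPM (young), a log2 change of 0.19 ± 0.11 (SE; edgeR adjusted p = 0.370). The groups did not overlap, but aged replicate 2 was closer to the young libraries than to aged replicate 1. Mrps5 and Mrps7, core proteins with bacterial counterparts, had log2 changes of 0.13 and 0.11, also without overlap. Mrps34, on which the stability of the small subunit depends, was at 5.26 and 5.06 CPM against 4.25 and 4.67 CPM, a log2 change of 0.22 (adjusted p = 0.598). Of the exonic bases of Mrps34, 77.8% are shared with exons of Nme3 or Mapk8ip3, and Nme3 had 0 counts in every library, so the assignment of reads at this locus is uncertain.

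Mrps12, the protein of the decoding centre, showed overlapping groups, at 24.3 and 29.9 CPM (aged) against 26.9 and 25.04 CPM (young). The 3 paralogs Mrps18a, Mrps18b and Mrps18c sit at different places in the ribosome, the first of them in the large subunit despite its symbol. Their log2 changes were 0.08, 0.22 and -0.06 with adjusted p of 0.672, 0.562 and 0.758 in edgeR's test. Mrps18a, at 30.4 and 29.5 against 27.5 and 29.1 CPM, and Mrps18b, at 6.94 and 6.30 against 6.19 and 5.07 CPM, did not overlap between the ages, while Mrps18c did. Mrps18b shares 30.5% of its exonic bases with Gm16279 on the opposite strand and Mrps18c shares 23.2% with Gm43511 on the same strand, which makes both uncertain.

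Mrps30 is likewise a protein of the large subunit, and Mrps36 belongs to the 2-oxoglutarate dehydrogenase complex of the citric acid cycle rather than to the ribosome. Mrps30 was at 32.1 and 29.4 CPM (aged) against 31.9 and 30.9 CPM (young), and the groups overlapped. Mrps36 was at 8.97 and 8.47 CPM against 10.2 and 10.1 CPM, with both aged libraries lower. Placing the genes by position in the ribosome instead of by symbol left 26 small subunit genes with a median log2 change of -0.01 and 50 tested large subunit genes with -0.03.

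The 48 tested large subunit genes had a median log2 change of -0.03, with 19 positive and 29 negative estimates between -0.24 and 0.24. In 18 of them (37.5%) the groups did not overlap, 5 with higher and 13 with lower aged libraries, a share below the 51.6% of all genes tested. The medians of the small and the large subunit differed by 0.012.

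Mrpl20 (chr4:155802878-155809975, plus strand), a protein with a bacterial counterpart, had the lowest estimate and the smallest p of the large subunit. It was at 48.4 and 47.9 CPM in aged replicates 1 and 2, and at 59.7 and 53.8 CPM in young replicates 1 and 2. Both aged libraries were lower, and the young pair lay further apart than the aged pair. The log2 change was -0.24 ± 0.09 (SE; 95% interval -0.43 to -0.05; edgeR adjusted p = 0.146). With the replicate number as a block its edgeR adjusted p was 0.0476, but same-numbered libraries share only a number. Mrpl52, whose promoter window is printed above, was at 16.4 and 14.9 CPM against 18.9 and 18.0 CPM, without overlap (log2 change -0.23, adjusted p = 0.301).

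Mrpl33, Mrpl58 and Mrpl30 completed the 5 large subunit genes with the smallest p among the lower estimates, with log2 changes of -0.11, -0.16 and -0.14. In all 3 both aged libraries were below both young ones. Mrpl58, a peptidyl-tRNA hydrolase built into the ribosome that can release stalled chains, was at 27.8 and 29.9 CPM (aged) against 31.7 and 32.8 CPM (young). Its edgeR adjusted p was 0.380.

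On the other side, Mrpl38 (chr11:116131817-116138868, minus strand), a protein particular to mitochondrial ribosomes, had the highest estimate of all members. It was at 20.9 and 22.9 CPM in aged replicates 1 and 2, and at 19.2 and 17.7 CPM in young replicates 1 and 2. The groups did not overlap, and the log2 change was 0.24 ± 0.12 (SE; 95% interval -0.01 to 0.50; edgeR adjusted p = 0.259). Mrpl4, which lines the exit tunnel, was at 110.4 and 110.7 CPM (aged) against 100.9 and 100.7 CPM (young). Its log2 change was 0.13 ± 0.07 (SE; adjusted p = 0.281). Mrpl35, Mrpl9 and Mrpl55 had log2 changes of 0.18, 0.22 and 0.16, and the libraries overlapped for Mrpl9.

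Mrpl45, Mrpl23, Mrpl44, Mrpl12 and Mrpl37 of the large subunit, named for their roles, showed overlapping groups. Mrpl45, which ties the ribosome to the inner membrane, was at 22.1 and 26.5 CPM (aged) against 21.2 and 23.03 CPM (young) (log2 change 0.14). Mrpl23, at the mouth of the exit tunnel, was at 30.1 and 24.1 CPM against 31.6 and 28.5 CPM (log2 change -0.15). Mrpl44, which has a ribonuclease III-like fold, was at 27.3 and 27.6 CPM against 25.4 and 29.2 CPM, a log2 change of 0.01 (95% interval -0.23 to 0.25). Mrpl12, the stalk protein that binds translation factors, and Mrpl37 had log2 changes of 0.03 and 0.05. Of these 5 genes, Mrpl12 had the widest interval, from -0.38 to 0.44, at 7.70 to 10.4 CPM.

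Mrpl53 (chr6:83109040-83109939, plus strand) had 0 counts in every library, which allows up to 0.0868 to 0.151 CPM (3 counts, per library; counting error only). Of its exonic bases, 87.97% are shared on the same strand with the gene model Gm42688, which had 1 to 6 counts per library, so a level of Mrpl53 cannot be read from these tables.

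By summed level, the balance of the subunits differed between the ages by less than the spread between replicates. The summed CPM of the small subunit genes divided by that of the large subunit genes was 0.443 and 0.433 for aged replicates 1 and 2, and 0.440 and 0.437 in young replicates 1 and 2. The young ratios lay between the aged ones. By the median log2 CPM of the tested genes, the small subunit stood at 4.59 and 4.65 (aged) against 4.60 and 4.52 (young). The large subunit stood at 4.82 and 4.84 (aged) against 4.90 and 4.85 (young). On this measure the small subunit lay nearer to the large one in both aged libraries than in either young one, a difference that was not tested. The 46 proteins with a bacterial counterpart had a median log2 change of -0.04, and the 30 tested proteins that occur only in mitochondria one of 0.00, with 0 calls by edgeR in either class and 2 and 0 genes at an unadjusted p under 0.05.

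Levels of different genes were compared as CPM per kilobase of mRNA, using the mean length of a gene's protein-coding transcripts in GENCODE M21. Mrpl33 stood far above the rest at 420 CPM per kilobase, followed by Mrpl42 at 93.9 and Mrpl20 at 92.5. In the small subunit, Mrps21 (84.2), Mrps15 (65.4) and Mrps18c (58.4 CPM per kilobase) led. Within a library, the proteins of 1 particle were represented by mRNA levels that differed widely from gene to gene. The lead of Mrpl33 depends on the length used, since it took rank 12 in its subunit when the length of all annotated exons together was taken, and Mrpl28, Mrpl34 and Mrpl36, named after their values were seen, then led, whereas the 3 leading small subunit genes were the same with either length.

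**Figure D2:**
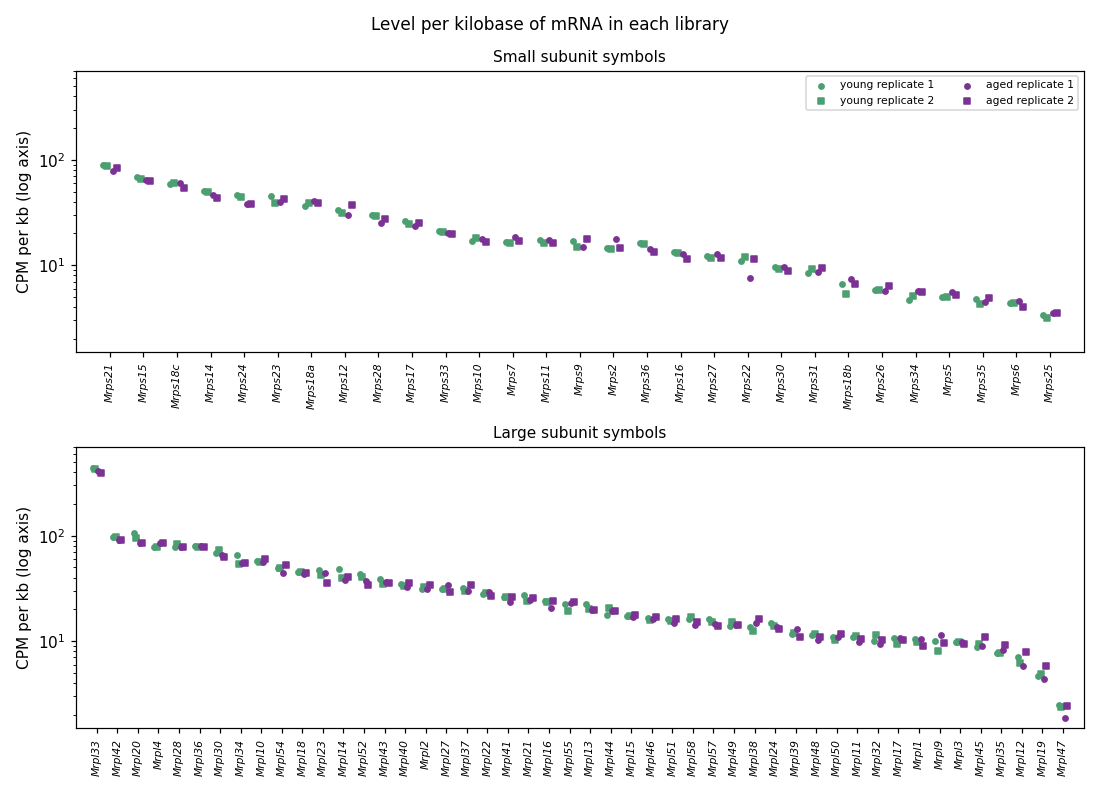
Level of each tested mitochondrial ribosomal protein gene in CPM per kilobase of mRNA (log axis) in each of the 4 libraries, sorted by the mean level; small subunit symbols above, large subunit symbols below, circles for replicate 1 and squares for replicate 2. The aged and young points of a gene lie close together compared with the distance between genes, and Mrpl33 stands apart at 420 CPM per kilobase.

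Other genes of mitochondrial translation were taken from lists of known members. Of 5 mitoribosomal proteins with other symbols, 0 passed the test (1 at an unadjusted p under 0.05), with a median log2 change of 0.01. That gene was Chchd1, a small subunit protein that occurs only in mitochondria. It was at 20.2 and 18.3 CPM (aged) against 26.5 and 25.1 CPM (young), both aged libraries lower. The log2 change of -0.42 ± 0.11 (SE) had an edgeR adjusted p of 0.0524, just above the threshold, and it passed in 7 of the alternative settings, among them limma-voom (adjusted p = 0.0479) and the fit without aged replicate 1 (0.0245).

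Factors that build or serve the ribosome also gave no call. Among 27 assembly and rRNA modification factors, 15 tested translation factors, 17 aminoacyl-tRNA synthetases and 11 tested regulators of mitochondrial biogenesis, edgeR called 0, with 1, 1, 2 and 1 genes at an unadjusted p under 0.05. The medians of the log2 changes were 0.01, 0.02, 0.01 and 0.06. Rbfa, which assists small subunit maturation, was at 107.9 and 110.8 CPM (aged) against 93.0 and 95.7 CPM (young), the smallest p of its list (log2 change 0.21, adjusted p = 0.102). Hars2, the mitochondrial histidyl-tRNA synthetase, was at 29.2 and 29.1 CPM against 22.4 and 22.7 CPM (log2 change 0.37 ± 0.10 (SE), edgeR adjusted p = 0.0578). Pprc1, a coactivator related to PGC-1, was lower in estimate, with a log2 change of -0.33 and an adjusted p of 0.0941. Among translation factors 2810006K23Rik had the smallest p (log2 change 0.42, adjusted p = 0.115). Lars2, also a synthetase and named after its values were seen, stood at 7694 to 10595 CPM, far above the others of its list, and where its reads come from was not tested.

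Calls were frequent among the mRNAs that this ribosome translates. Of 13 mRNAs encoded by mitochondrial DNA, 11 were tested and 7 were lower in the aged libraries (63.6%, against 2.89% of all genes tested called lower), with a median log2 change of -0.78 over the 11. mt-Nd5, a complex I subunit, was at 91.2 and 92.4 CPM (aged) against 226 and 225 CPM (young) (log2 change -1.30 ± 0.06 (SE), edgeR adjusted p = 6.3e-07). mt-Nd1 and mt-Cytb fell by 1.01 and 0.81 on the log2 scale, and mt-Nd6, which lies opposite part of mt-Nd5 and may share reads with it, by 0.94. The remaining 4 tested mRNAs, mt-Nd3, mt-Co2, mt-Co3 and mt-Atp6, were at 0.506 to 2.71 CPM and did not pass, and mt-Nd4l and mt-Atp8 had at most 2 counts in a library. Copies of mitochondrial sequence in the nuclear genome can divert reads, so levels of these mRNAs are uncertain.

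The proteins of the cytosolic ribosome, measured in the same way, give the closest comparison in function. Of 81 tested genes, 50 were lower in the aged libraries (61.7%) and none higher, with a median log2 change of -0.33, and in 80 both aged libraries lay below both young ones, against 25.7% of all genes tested. Their summed level was 12270 and 12194 CPM (aged) against 15853 and 14508 CPM (young). Leaving out 1 library changed the count: 7 were called without young replicate 1 and 33 without aged replicate 2. Rpl41, the shortest ribosomal protein, had the smallest p, at 109.9 and 103.2 CPM against 174.7 and 154.4 CPM (log2 change -0.63 ± 0.08 (SE), edgeR adjusted p = 0.0011); it and the oxidative phosphorylation genes named next were chosen after their values had been seen. Many of these genes have processed pseudogenes that can share their reads.

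Nuclear genes for oxidative phosphorylation encode the partners of the proteins made by the mitochondrial ribosome. Of 77 tested, 56 had negative estimates, with a median log2 change of -0.10. In 41 both aged libraries lay below both young ones and in 5 above, against 25.7% and 25.9% of all genes tested. By the test 4 were lower (5.19%) and none higher. Over all genes tested 5.77% were called in either direction, a share near that of this set, and 2.89% were called lower. Those 4 were Atp5e of ATP synthase, Cox7a2 and Cox7b of cytochrome c oxidase, and Ndufa4, with log2 changes of -0.42, -0.33, -0.37 and -0.34 and adjusted p of 0.0273, 0.0259, 0.0349 and 0.0357 in edgeR's test. None of the 4 remained a call without aged replicate 2 or without young replicate 1. These sets share all 4 libraries with the mitochondrial ribosomal genes, and the difference between the sets was not tested.

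**Figure D3:**
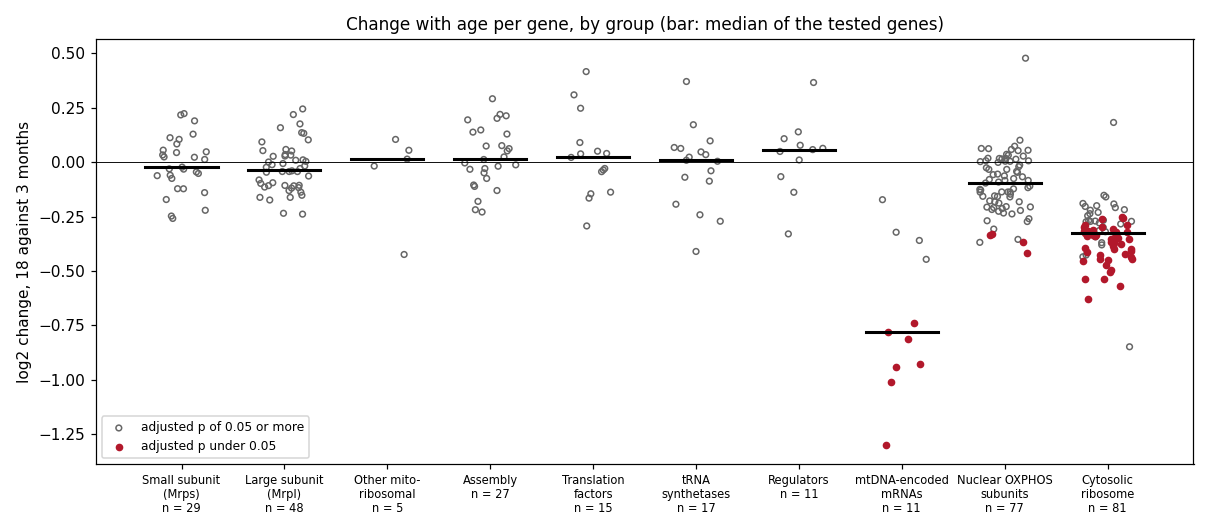
Log2 change of every tested gene, 18 against 3 months, for the 2 subunits of the mitochondrial ribosome, related lists, and comparison sets; bars mark medians and filled red points mark genes with an edgeR adjusted p under 0.05. The mitochondrial ribosomal genes hold no filled point, while 7 of 11 mRNAs encoded by mitochondrial DNA, 4 of 77 nuclear oxidative phosphorylation genes and 50 of 81 cytosolic ribosomal protein genes are filled, all below 0.

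Set against the mean of the young libraries, the sums of the mitochondrial ribosomal genes stood at 0.974 and 0.981 for the aged libraries and at 1.01 and 0.987 for the young. The cytosolic ribosomal proteins stood at 0.808 and 0.803 (aged) against 1.04 and 0.956 (young). For the mRNAs encoded by mitochondrial DNA the aged values were 0.582 and 0.495, against 0.950 and 1.05. Per unit of mitochondrial ribosomal protein mRNA, these mRNAs summed to 0.411 and 0.347 (aged) against 0.644 and 0.732 (young), with no overlap.

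**Figure D4:**
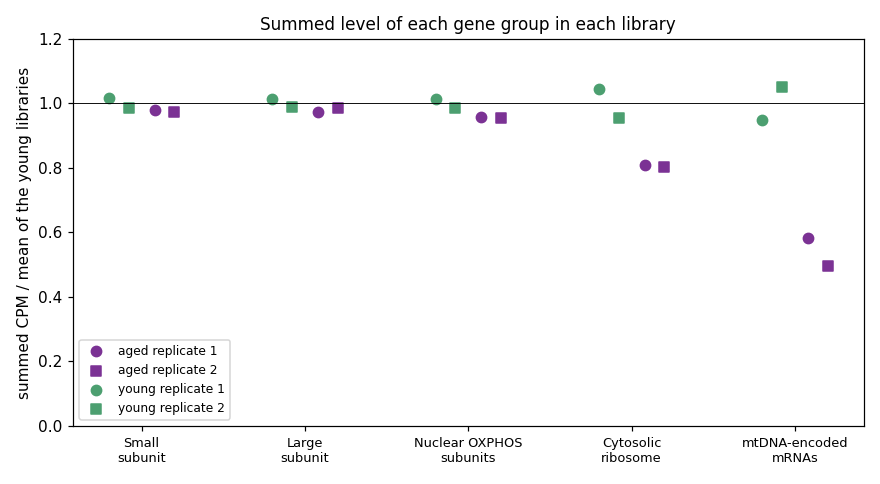
Summed CPM of each gene group in each library, divided by the mean of the young libraries; circles are replicate 1, squares replicate 2, green young and purple aged. Both subunits of the mitochondrial ribosome lie between 0.97 and 1.02 in all 4 libraries, while the aged points of the cytosolic ribosome are at 0.808 and 0.803 and those of the mRNAs encoded by mitochondrial DNA at 0.582 and 0.495.

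Many mitochondrial ribosomal genes begin next to another gene that runs in the opposite direction. Counted were protein-coding neighbours in head-to-head orientation whose start lay within 1000 bases upstream in GENCODE M21. Pairs whose 5′ ends overlap, such as Mrps11 and Mrpl46, were not counted in any set. By this rule 18 of the 78 (23.1%; 6 small and 12 large subunit genes) had such a neighbour, against 10.9% of the tested and 6.75% of all protein-coding genes in the tables. Such pairs share the short stretch of DNA between their starts. For Mrpl49 and its partner Fau, which encodes a cytosolic ribosomal protein fused to a ubiquitin-like protein, the starts lie 59 bases apart, and the stretch between the transcripts is chr19:6057786-6057843, shown on the strand of Mrpl49 because Fau passed the test and Mrpl49 did not. It holds none of the 3 motifs, so no letters are in capitals.
Mrpl49: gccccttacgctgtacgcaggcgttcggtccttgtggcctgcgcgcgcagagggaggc

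Of the 18 partners, all tested, 2 were called and both were lower in the aged libraries, where 2.89% of all genes tested were called lower (5.77% in either direction). A count of 2 among 18 is too small to set the partners apart from other genes. Fau was at 141 and 144 CPM (aged) against 193 and 174 CPM (young) (log2 change -0.36 ± 0.07 (SE), edgeR adjusted p = 0.0132). Mrpl49 was at 22.0 and 21.8 CPM (aged) against 21.2 and 23.6 CPM (young), and its groups overlapped (log2 change -0.03, 95% interval -0.28 to 0.22). The second called partner was Ncapd2, a condensin subunit whose start lies 100 bases from that of Mrpl51. Ncapd2 was at 125 and 127 CPM against 161 and 147 CPM (log2 change -0.29 ± 0.07 (SE), edgeR adjusted p = 0.0358). Mrpl51, at 50.4 and 55.6 CPM (aged) against 55.5 and 53.8 CPM (young), overlapped between the ages (log2 change -0.05). Without young replicate 1 neither partner passed (adjusted p = 0.167 for Fau and 0.329 for Ncapd2), and the difference within a pair was not tested. The partners were singled out after their values had been seen.

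**Figure D5:**
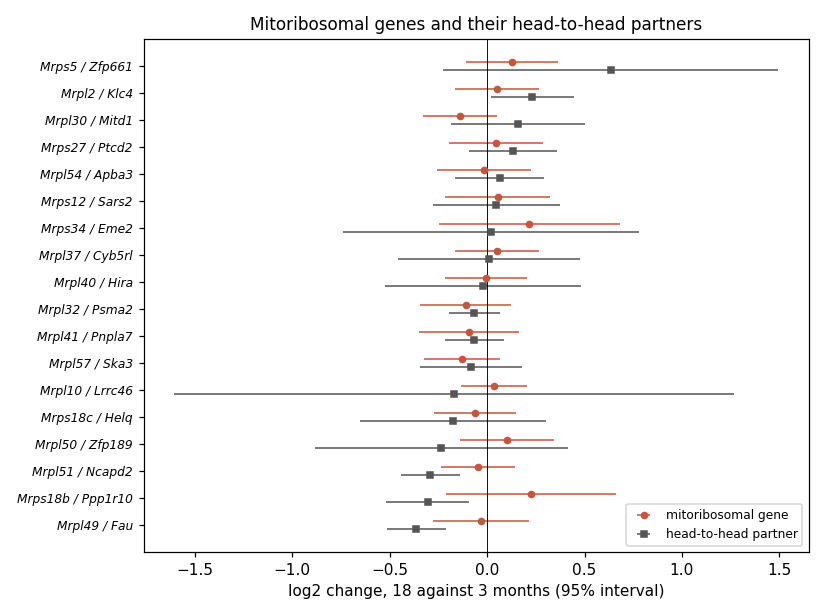
Log2 change with 95% interval, 18 against 3 months, of the 18 mitochondrial ribosomal genes with a counted head-to-head neighbour (circles) and of that neighbour (squares), sorted by the neighbour's change. The circles lie between -0.14 and 0.22, and the intervals of Fau, Ncapd2 and Ppp1r10 lie below 0 and that of Klc4 above 0, of which Fau and Ncapd2 passed the adjusted threshold.

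The partners are not otherwise of 1 kind. Mrps12 shares its upstream region with Sars2, the mitochondrial seryl-tRNA synthetase, whose start lies 172 bases away, and the log2 changes of the pair were 0.06 and 0.05. Mrpl32 is paired at 75 bases with Psma2, a proteasome subunit with a log2 change of -0.07. Mrps18b is paired at 45 bases with Ppp1r10, a regulatory subunit of protein phosphatase 1, which had a log2 change of -0.30 (adjusted p = 0.0987). The median log2 change of the 18 partners was -0.04.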

How the data were processed

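The values analysed were raw counts of reads for each gene symbol, deposited as separate tables for the 4 libraries and left unnormalized by the authors as far as the values show. The submitters' processing notes list HTSeq, STAR 2.5.3, cutadapt and DESeq2 with mm10 as the build. Per the labels' protocols, mRNA was selected with oligo-dT and libraries were strand-specific. Which annotation and strand setting HTSeq used was not given in the sources used here. Genes that overlap may therefore share reads or lose them.

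Genes were kept by filterByExpr (minimum count 10, minimum total 15), scaled with TMM factors and tested two-sided, aged against young, with edgeR's quasi-likelihood F-test (edgeR 4.0.16, limma 3.58.1, R 4.3.3), adjusted by Benjamini-Hochberg over all 12035 genes at 0.05. The standard error is the size of the log2 change divided by the square root of F, and 95% intervals use the fit's degrees of freedom. The scripts were tested on simulated data. Alternatives were 3 other scalings, 3 other filters, DESeq2 1.42.0, limma-voom, robust edgeR, offsets for GC content and length, the replicate number as a block, and leaving out each library. Libraries held 20159129 to 34278754 counts; floors for a count of 0 cover counting error only, whereas the intervals include the spread between libraries.

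Coordinates and lengths come from GENCODE M21 (GRCm38, the assembly called mm10), and promoter windows from RefSeq (GRCm38.p6). The members and all lists were chosen with earlier results of these data known. Genes are named if they pass the threshold, are among the 5 with the smallest p per subunit and direction or the 3 most abundant per length, or hold one of 15 places set by role; related lists give their called genes, at most 4 per direction, or the smallest p. Other names, such as markers, overlapping or neighbouring genes and genes of the comparison sets, were chosen after their values were seen.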

Additional observations from a re-analysis of the deposited data

How the results depend on the processing

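The members' count of calls was 0 under the 3 other scalings, the 3 other filters, DESeq2, limma-voom, robust edgeR and the offsets for GC content and length, and without each library in turn (0 to 0). With the replicate number as a block it was 1, Mrpl20 (adjusted p = 0.0476), and with the block and the GC and length offsets together also 1, again Mrpl20 (0.0295). Same-numbered libraries deviated together only weakly (correlation 0.0937 over all genes, 0.101 over the members) and share only a number; the block raised the calls over all genes from 694 to 1817. The medians of both subunits and their difference moved by less than the spread between libraries under all alternatives run. Calls in the related lists were 7, then 11 with no filter on low counts, 12 with the block, and 7 to 8 without single libraries. Cytosolic ribosomal protein calls were 50, then 76 with offsets and block, and 7 to 59 without single libraries. Oxidative phosphorylation calls were 4, then 11 with no filter, 9 with offsets, 21 with offsets and block, 16 with the block, and 0 to 7 without single libraries. The cause was not tested. Depth limits the precision most for members under about 10 CPM, such as Mrps34 and Mrps18b.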
